A study of Homo sapiens with 9 samples.

Results

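Collagen genes were taken as the genes whose symbol in the array annotation is COL, a number, A and a number, which gave 43 genes of the 19775 that had a probe set of their own. The 43 genes were covered by 112 of the 41091 probe sets that carry exactly 1 gene. Each gene was represented by its brightest probe set, judged by the mean of all 9 arrays, and the other probe sets of the 35 genes that had several were used as a check. A549 cells, an established line from a human lung adenocarcinoma, were given an siRNA against NRF2 (Nrf2 siRNA, with gene symbol NFE2L2 for its target), a non-targeting siRNA (NS siRNA), or the transfection reagent with no siRNA (mock). Each group held 3 biological replicates. Both siRNAs were used at 25 nM with a lipid transfection reagent, cells of all groups grew in high-glucose medium with serum, and the cells were harvested for RNA 96 h later. Neither a rescue nor another siRNA against NRF2 is part of the design, so loss of NRF2 and an off-target effect of this siRNA cannot be told apart. Levels are log2 expression values, so that a difference of 1 is a 2-fold change.

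Collagens are proteins of the extracellular matrix whose chains wind in threes into a triple helix. Fibrillar collagens build the tensile fibres of connective tissue and are made mostly by fibroblasts, type IV collagens form the network of basement membranes under epithelia, and smaller families decorate fibrils, anchor the epithelium or sit in the cell membrane. NRF2 is the transcription factor of the antioxidant response, and it binds as a partner of small MAF proteins to antioxidant response elements in DNA.

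The targeted transcript was measured first. NFE2L2 stood at 10.12, 10.32 and 10.30 after Nrf2 siRNA, at 12.09, 12.03 and 12.15 after NS siRNA, and at 12.07, 11.92 and 11.98 in mock. After Nrf2 siRNA the transcript differed from NS siRNA by -1.84 on the log2 scale (adjusted p = 1.92e-10), and differed from mock by -1.74 (adjusted p = 6.07e-10). The array medians lay between 7.51 and 7.57, the median standard deviation between replicates was 0.069, and replicate arrays correlated across probe sets with r between 0.9979 and 0.9987. Precision is limited by the 3 arrays in each group, and no background test of dim probe sets was available.

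RefSeq promoter windows of 300 bases (250 before to 50 after a transcript start, GRCh38.p14) were available for 31 of the 43 genes, in 43 windows. The sequences shown are those of genes on which the results turn: the type IV genes that lie head to head, the fibrillar gene with the largest difference that had a window, and COL21A1. Capitals mark matches on either strand to TGACNNNGC (the core of the antioxidant response element), TGANTCA (AP-1), CCAAT or TATAAA. The first of these motifs can overlap an AP-1 match. The COL4A1 and COL4A2 line runs from the start of COL4A1 (minus strand) to the start of COL4A2 (plus strand) at chr13:110307157-110307284, on the plus strand. The other windows are COL4A5 at chrX:108439588-108439887 (plus strand), COL4A6 at chrX:108439409-108439708 (minus strand), COL11A1 at chr1:103108473-103108772 (minus strand) and COL21A1 at chr6:56091613-56091912 (minus strand).
COL4A1 and COL4A2, between the starts: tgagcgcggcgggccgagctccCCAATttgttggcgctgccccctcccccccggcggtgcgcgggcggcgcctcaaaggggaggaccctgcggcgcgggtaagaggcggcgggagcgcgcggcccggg
COL4A5: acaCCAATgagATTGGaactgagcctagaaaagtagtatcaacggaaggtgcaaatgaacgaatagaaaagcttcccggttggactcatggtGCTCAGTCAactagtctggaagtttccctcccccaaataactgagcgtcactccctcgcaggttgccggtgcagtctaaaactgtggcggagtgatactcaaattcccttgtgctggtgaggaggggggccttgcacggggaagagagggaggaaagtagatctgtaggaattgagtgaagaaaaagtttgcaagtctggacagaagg
COL4A6: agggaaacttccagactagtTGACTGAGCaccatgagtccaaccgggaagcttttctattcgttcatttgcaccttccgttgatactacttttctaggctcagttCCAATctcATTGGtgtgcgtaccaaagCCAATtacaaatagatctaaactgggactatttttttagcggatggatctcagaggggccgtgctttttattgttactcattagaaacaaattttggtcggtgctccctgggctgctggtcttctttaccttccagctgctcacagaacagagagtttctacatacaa
COL11A1: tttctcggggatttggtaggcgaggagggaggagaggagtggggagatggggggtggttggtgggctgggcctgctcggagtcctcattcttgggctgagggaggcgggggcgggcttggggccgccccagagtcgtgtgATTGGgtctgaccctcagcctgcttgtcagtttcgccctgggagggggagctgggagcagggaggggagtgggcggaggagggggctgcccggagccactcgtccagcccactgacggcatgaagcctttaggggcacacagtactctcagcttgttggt
COL21A1: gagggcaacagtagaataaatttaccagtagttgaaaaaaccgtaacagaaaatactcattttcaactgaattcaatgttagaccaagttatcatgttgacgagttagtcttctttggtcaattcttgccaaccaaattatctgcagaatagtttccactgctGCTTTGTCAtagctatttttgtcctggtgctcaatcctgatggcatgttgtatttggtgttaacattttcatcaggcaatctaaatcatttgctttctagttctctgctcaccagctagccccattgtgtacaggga

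The starts of COL4A1 and COL4A2 lie 127 bases apart, and the stretch between them holds a single CCAAT match. TGACNNNGC was found in 3 of the 43 collagen windows (6.98%), against 13.3% of all 35116 windows of this length. The match in the COL4A5 window and that in the COL4A6 window are the same bases, chrX:108439680-108439688, because these windows share 121 bases. COL4A6 has another window, whose start lies 1416 bases from that of COL4A5 and which shares no base with the COL4A5 window and holds no TGACNNNGC match. The third match lies in 1 of the 3 windows of COL21A1, and which starts of COL21A1 and COL4A6 these cells use was not measured. CCAAT was found in 13 collagen windows (30.2%, against 34.6% of all windows), TATAAA in 7 (16.3%, against 11.5%) and TGANTCA in 1 window of COL10A1 (2.33%, against 7.71%). A match is a description of these letters and not evidence of a binding site.

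After Nrf2 siRNA, a group of collagens stood higher than after NS siRNA, led by the FACIT collagen COL21A1, the fibrillar collagens COL3A1, COL11A1 and COL1A1, and COL4A5 of basement membranes, which were up between 2.04-fold and 3.41-fold. Of the 43 collagen genes, 12 were higher and 8 lower at an adjusted p below 0.05 (limma, Benjamini-Hochberg over 19775 genes), and 23 did not pass. The share called in either direction was 46.5%, near the 47.6% of all genes tested. By direction, 27.9% of the collagen genes were higher, against 21.0% of all genes, and 18.6% were lower, against 26.6% of all genes. At 2-fold or more, 5 collagen genes were higher (11.6%, against 2.11% of all genes) and 0 were lower (against 0.713% of all genes), the largest fall being -0.41. The median difference was -0.01 over the collagen genes and -0.05 over all genes.

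The counts depended on the control. Against mock, 11 collagen genes were higher (25.6%, against 16.4% of all genes) and 2 lower (4.65%, against 16.7%), and 13 of 43 passed in either direction, against 33.0% of all genes. At 2-fold or more, 1 was higher than in mock (2.33%, against 1.03%) and 0 were lower (against 0.415%), where the lowest value was -0.28. NS siRNA against mock gave 3 higher (6.98%, against 15.6% of all genes) and 9 lower (20.9%, against 15.2%), where 30.8% of all genes passed in either direction. Between NS siRNA and mock all collagen differences were below 2-fold, with 0 higher by that size (against 0.217% of all genes) and 0 lower (against 0.678%), within -0.94 and 0.47. Medians over the collagen genes were -0.00 against mock and 0.02 for NS siRNA against mock, beside -0.02 and 0.03 over all genes. The comparisons share arrays (Nrf2 siRNA in the first pair, NS siRNA and mock in the others), so their values are given side by side for each gene. A gene's value against mock minus its value against NS siRNA is its NS siRNA against mock contrast, which was tested. Of the 12 genes higher than after NS siRNA, 10 were also higher than in mock and 8 were lower after NS siRNA than in mock. The matching counts among all 4156 genes that were higher were not made. The Nrf2 siRNA or NS siRNA arrays that picked the 12 enter these counts too, so they are not read as a trait of collagens. For 10 of the 12 (83.3%), all 3 Nrf2 siRNA arrays lay above all 6 control arrays, as they did for 2742 of the 4156 genes of the whole array that were higher (66.0%). Over all genes tested that is 13.9%, against which the 10 were 23.3% of the 43 collagen genes.

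**Figure D1:**
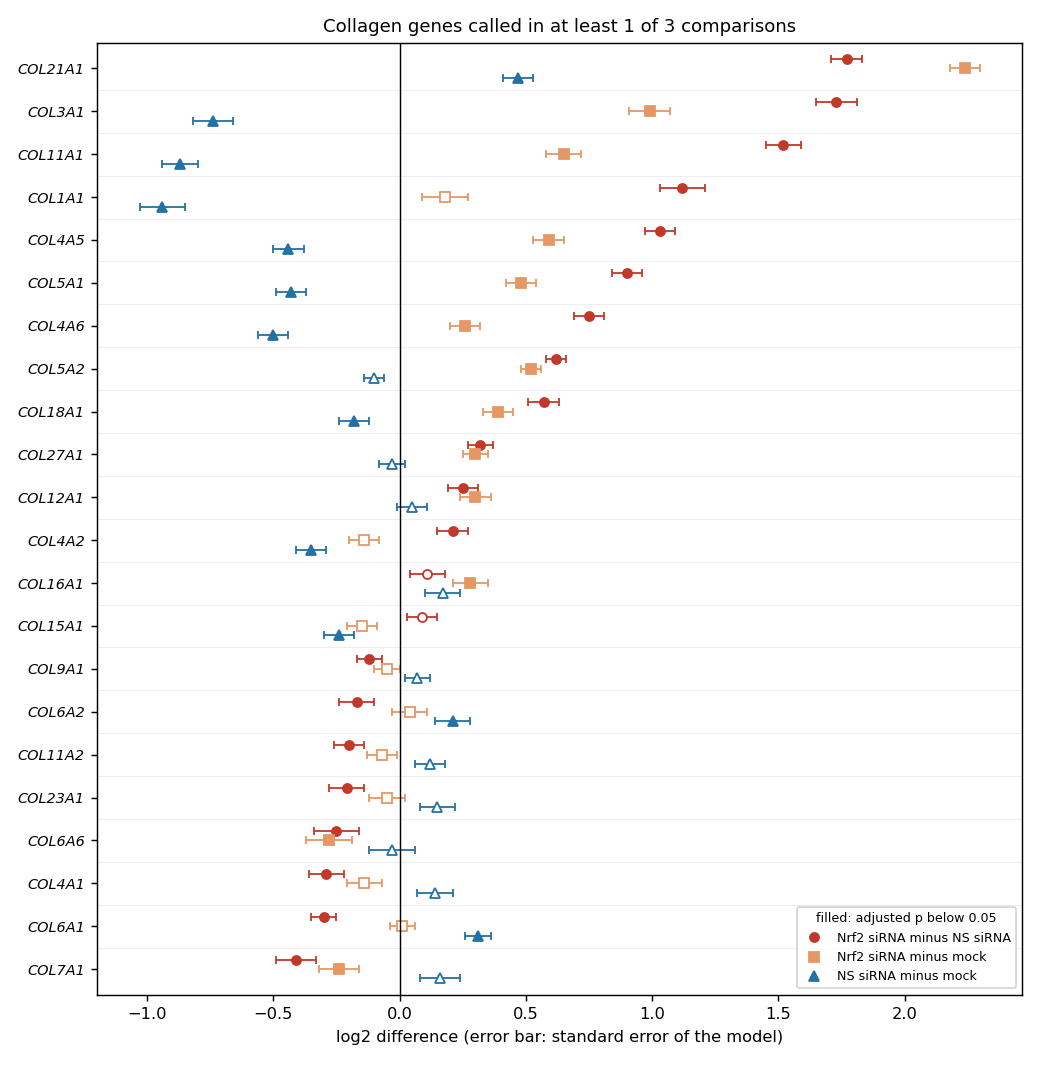
Log2 difference (x axis) of the 22 collagen genes called in at least 1 comparison, with red circles for Nrf2 siRNA minus NS siRNA, orange squares for Nrf2 siRNA minus mock and blue triangles for NS siRNA minus mock. Bars are the standard errors of the model and filled symbols have an adjusted p below 0.05. From COL3A1 to COL4A6 the orange squares lie left of the red circles and the blue triangles lie below 0, while COL21A1 has its largest value against mock, 2.24.

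The fibrillar family held 11 of the 43 genes. After Nrf2 siRNA 6 were higher (COL1A1, COL3A1, COL5A1, COL5A2, COL11A1 and COL27A1), 1 was lower (COL11A2) and 4 did not pass against NS siRNA, with a median difference of 0.32. That is 54.5% higher and 9.09% lower, beside 21.0% and 26.6% of all genes. Against mock 5 were higher (45.5%, against 16.4% of all genes), with a median of 0.18. The other 6, COL1A1 and COL11A2 among them, did not pass. After NS siRNA 4 were lower than in mock (36.4%, against 15.2% of all genes) and the other 7 did not pass, with a median of -0.03.

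COL3A1 encodes the chain of type III collagen, a homotrimer of extensible tissues, and is a customary marker of fibroblasts. Its level was 9.22, 9.33 and 9.46 after Nrf2 siRNA, 7.76, 7.55 and 7.50 after NS siRNA, and 8.31, 8.45 and 8.27 in mock. The 3 groups did not overlap, with Nrf2 siRNA highest and NS siRNA lowest. The gene was up 3.33-fold against NS siRNA (log2 1.73 ± 0.08 SE, adjusted p = 2.66e-09) and 1.99-fold against mock (adjusted p = 8.20e-07), and NS siRNA was below mock (-0.74, adjusted p = 1.43e-05). Its 5 probe sets did not move alike: 3 were called higher against NS siRNA, with differences of 1.73, 1.92 and 2.29, and the other two, at -0.05 and -0.08, did not pass. The brightest bears the suffix (x) that Affymetrix gives to probe sets whose probes may match other transcripts.

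COL1A1 encodes the main chain of type I collagen, the chief fibre protein of skin, bone and scar. It stood at 11.11, 11.41 and 11.20 after Nrf2 siRNA, at 10.18, 10.09 and 10.10 after NS siRNA, and at 10.86, 11.08 and 11.25 in mock. The Nrf2 siRNA arrays lay above every NS siRNA array and overlapped the mock arrays. Against NS siRNA the gene was up 2.17-fold (1.12 ± 0.09 SE, adjusted p = 5.98e-07), and against mock the difference of 0.18 did not pass (adjusted p = 0.176). NS siRNA was 0.522 times mock (-0.94, adjusted p = 7.24e-06). COL1A1 passed against mock without mock replicate 3 (0.27, adjusted p = 0.0427) and with averaged probe sets (0.16, adjusted p = 0.0475). Of its 5 probe sets, 3 were called higher against NS siRNA and the other two stood at -0.05 and -0.04, neither past the threshold. Between NS siRNA and mock 2 probe sets were called lower and 1 was called higher (0.20, adjusted p = 0.0128 over all probe sets).

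COL1A2 encodes the partner chain of COL1A1 in type I collagen. It was looked up for that reason after the values were seen. It averaged 7.64 ± 0.055 after Nrf2 siRNA, 7.64 ± 0.069 after NS siRNA and 7.62 ± 0.10 in mock (SD, n = 3 each), close to the array medians. With its brightest probe set it did not pass in any of the 3 comparisons, and its adjusted p against NS siRNA was 0.997. Of its 3 probe sets, 1 dimmer one was called lower against NS siRNA (-0.15, adjusted p = 0.0493 over all probe sets). The COL1A1 and COL1A2 calls thus differed, and whether the COL1A2 probe sets were above background was not tested.

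COL11A1 encodes a chain of type XI collagen, which forms the core of thin fibrils. It had levels of 8.70, 8.89 and 8.82 after Nrf2 siRNA, 7.30, 7.29 and 7.26 after NS siRNA, and 8.01, 8.26 and 8.17 in mock. The groups did not overlap and kept the order seen for COL3A1. The gene was up 2.87-fold against NS siRNA (1.52 ± 0.07 SE, adjusted p = 1.75e-09) and 1.57-fold against mock (adjusted p = 6.89e-06), with NS siRNA below mock (-0.87, adjusted p = 7.88e-07). All 3 of its probe sets were called higher against NS siRNA. COL11A2, another chain of type XI collagen, went the other way at a small size (-0.20, adjusted p = 0.0181), and that call was lost without NS siRNA replicate 3 (-0.15, adjusted p = 0.0815) or without Nrf2 siRNA replicate 2 (-0.16, adjusted p = 0.0758).

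COL5A1 and COL5A2 encode chains of type V collagen, which sits inside type I fibrils and sets their width. COL5A1 stood at 11.83, 11.86 and 11.85 after Nrf2 siRNA, at 11.00, 10.95 and 10.87 after NS siRNA, and at 11.22, 11.46 and 11.43 in mock. COL5A2 stood at 13.57, 13.58 and 13.57 after Nrf2 siRNA, at 12.98, 12.95 and 12.93 after NS siRNA, and at 13.00, 13.08 and 13.09 in mock. For both genes the Nrf2 siRNA arrays lay above all control arrays. COL5A1 was up 1.87-fold against NS siRNA (0.90 ± 0.06 SE, adjusted p = 9.54e-08) and by 0.48 against mock (adjusted p = 5.82e-05), and NS siRNA was below mock (-0.43, adjusted p = 1.61e-04). COL5A2 was up 1.54-fold against NS siRNA (0.62 ± 0.04 SE, adjusted p = 1.12e-07) and by 0.52 against mock (adjusted p = 1.20e-06), while NS siRNA and mock differed by -0.10, which did not pass (adjusted p = 0.0912). Every probe set of these genes, 3 and 2, was called higher against NS siRNA. COL5A3, the remaining type V chain, did not pass in any comparison.

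COL27A1, a fibrillar collagen of cartilage, was up by 0.32 against NS siRNA (adjusted p = 2.56e-04) and by 0.30 against mock (adjusted p = 8.43e-04). Its 5 probe sets disagreed: 2 were called higher against NS siRNA and 1 lower. With the mean of its probe sets in place of the brightest, the difference against NS siRNA was 0.07 and that against mock 0.09, and neither passed (adjusted p = 0.259 and 0.218). COL2A1 and COL24A1 did not pass in any comparison with their brightest probe sets.

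**Figure D2:**
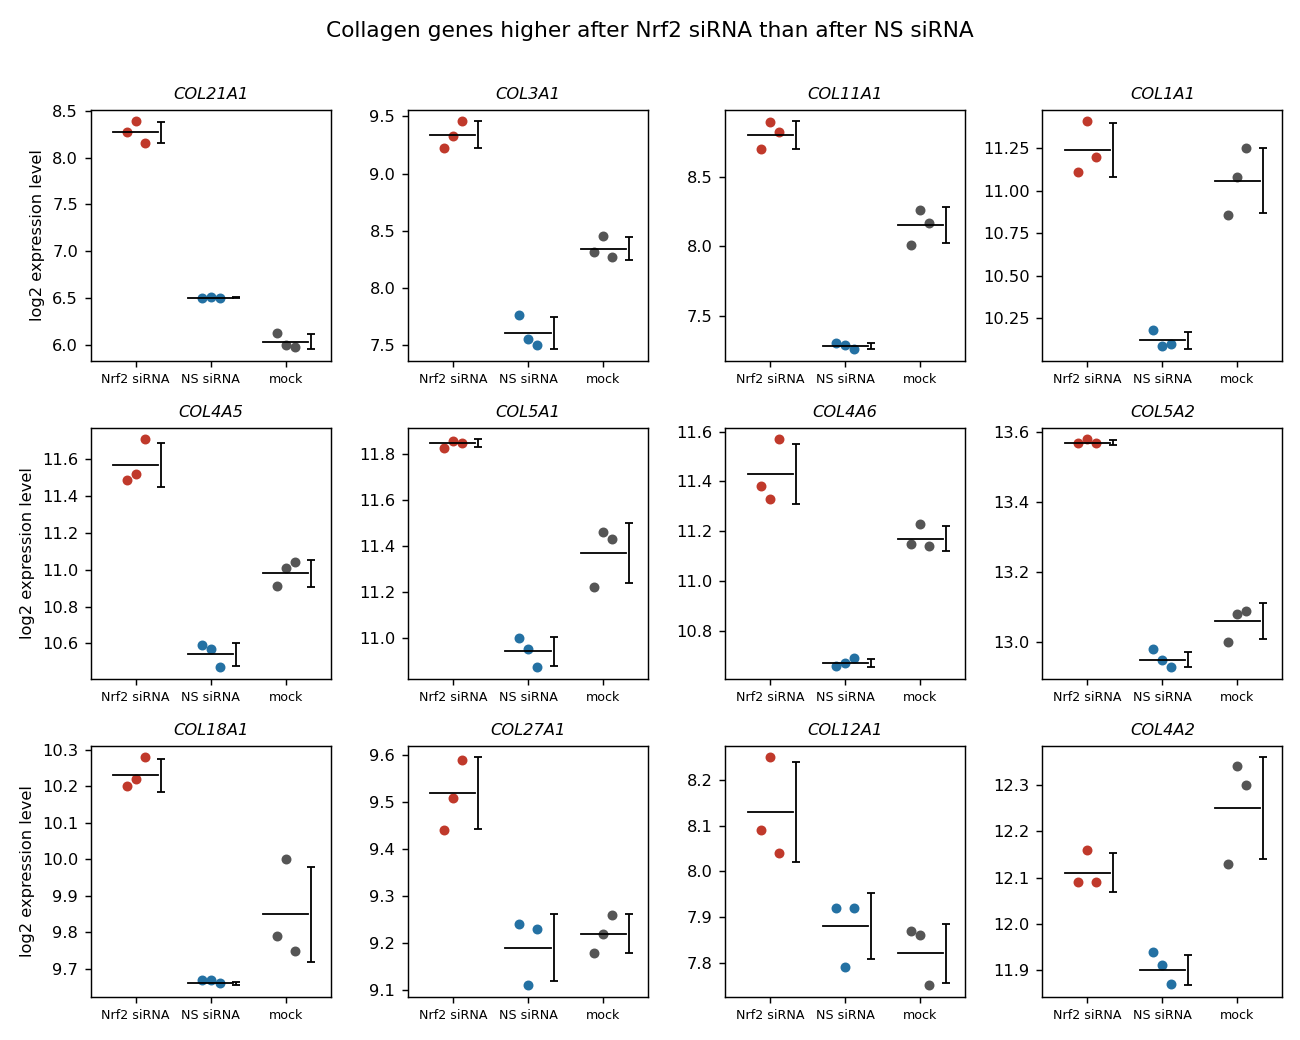
Log2 expression level (y axis, a different range in each panel) of the 12 collagen genes higher after Nrf2 siRNA than after NS siRNA, with 1 point per array, a line at the group mean and a bar of 1 SD (n = 3). In 10 panels every Nrf2 siRNA array lies above the 6 control arrays, and in the panels of COL1A1 and COL4A2 the mock arrays reach the level of the Nrf2 siRNA arrays.

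**Figure D3:**
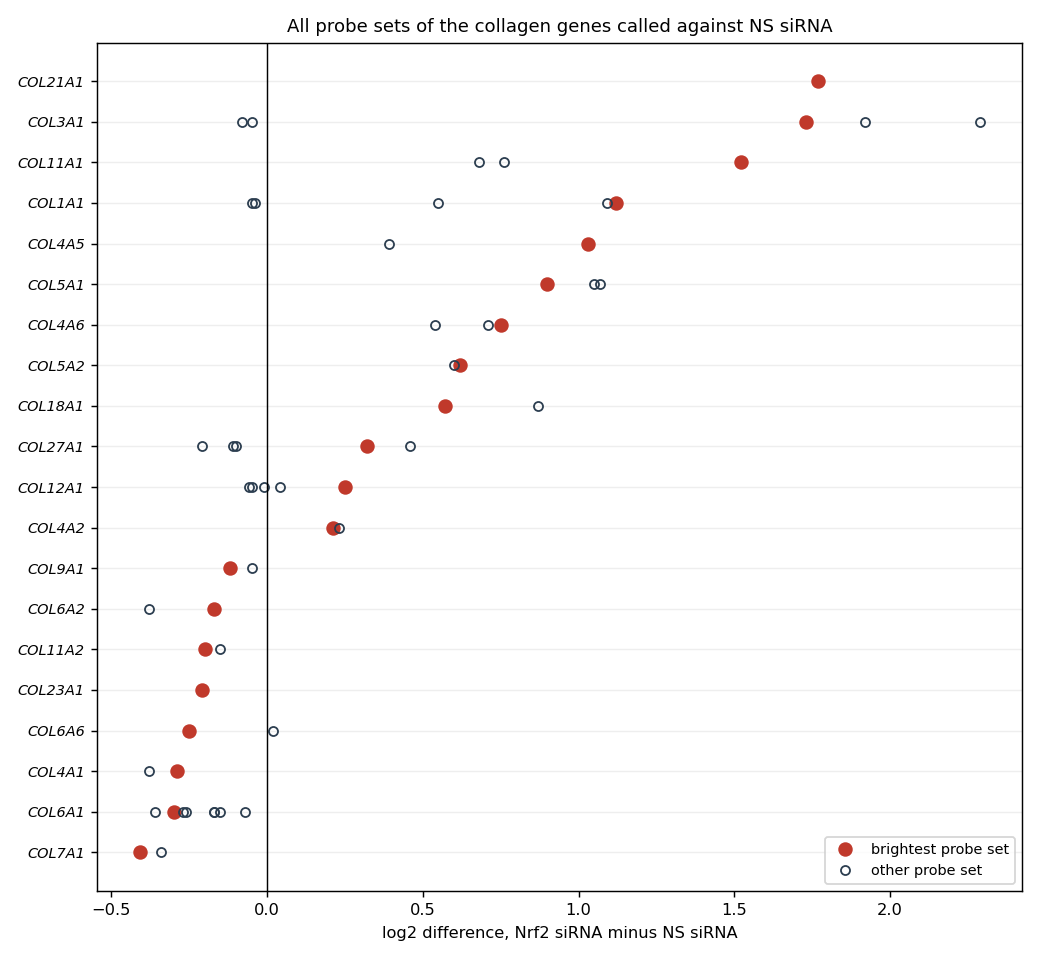
Log2 difference of Nrf2 siRNA minus NS siRNA (x axis) for every probe set of the 20 collagen genes called in that comparison, with the brightest probe set filled. COL3A1, COL1A1, COL27A1 and COL12A1 have probe sets near or below 0 beside their called ones, while all probe sets of COL11A1, COL4A5, COL5A1, COL4A6, COL5A2, COL18A1 and COL4A2 lie above 0.

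The basement membrane family, the 6 type IV genes, lies in the genome as head-to-head pairs. Against NS siRNA 3 were higher (COL4A2, COL4A5 and COL4A6), 1 was lower (COL4A1) and 2 did not pass (COL4A3 and COL4A4), with a median of 0.12. Of all genes 21.0% were higher and 26.6% lower, and 1 gene of the 6 is 16.7%. Against mock 2 were higher (33.3%, against 16.4% of all genes) and the other 4 did not pass, with a median of -0.03. After NS siRNA 3 of the 6 were lower than in mock, a share above the 15.2% of all genes. The other 3 did not pass, and the median was -0.20.

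COL4A5, a chain of the type IV network of kidney, lung and other basement membranes, stood at 11.49, 11.52 and 11.71 after Nrf2 siRNA, at 10.59, 10.57 and 10.47 after NS siRNA, and at 10.91, 11.01 and 11.04 in mock. COL4A6, the neighbour that shares promoter bases with it, stood at 11.38, 11.33 and 11.57 after Nrf2 siRNA, at 10.66, 10.67 and 10.69 after NS siRNA, and at 11.15, 11.23 and 11.14 in mock. In both genes the groups did not overlap, with Nrf2 siRNA highest, mock between and NS siRNA lowest. COL4A5 was up 2.04-fold against NS siRNA (1.03 ± 0.06 SE, adjusted p = 4.27e-08) and by 0.59 against mock (adjusted p = 1.31e-05), with -0.44 for NS siRNA against mock (adjusted p = 1.79e-04). COL4A6 was up 1.68-fold against NS siRNA (0.75 ± 0.06 SE, adjusted p = 3.46e-07) and by 0.26 against mock (adjusted p = 0.00441), with -0.50 for NS siRNA against mock (adjusted p = 3.47e-05). All probe sets of both genes, 2 and 3, were called higher against NS siRNA.

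COL4A1 and COL4A2 encode the chains of the type IV collagen found in nearly all basement membranes, and against NS siRNA they moved in opposite directions. As a pair listed for this comparison, their array values are given too, although neither is among the members with the largest differences. COL4A2 stood at 12.09, 12.16 and 12.09 after Nrf2 siRNA, at 11.94, 11.91 and 11.87 after NS siRNA, and at 12.13, 12.34 and 12.30 in mock. COL4A1 stood at 11.09, 11.16 and 10.98 after Nrf2 siRNA, at 11.40, 11.37 and 11.33 after NS siRNA, and at 11.08, 11.29 and 11.30 in mock. The Nrf2 siRNA arrays of COL4A2 lay above the NS siRNA arrays, and those of COL4A1 below them. COL4A2 was higher than after NS siRNA by 0.21 (adjusted p = 0.00894) and COL4A1 lower (-0.29, adjusted p = 0.00298), and both probe sets of each gene were called in those directions.

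Against mock, both genes had a difference of -0.14 that did not pass (adjusted p = 0.074 for COL4A2 and 0.12 for COL4A1). Without mock replicate 1, COL4A2 was lower than in mock (-0.21, adjusted p = 0.0098) and so was COL4A1 (-0.22, adjusted p = 0.018). COL4A2 also passed with trended and robust eBayes (-0.14, adjusted p = 0.0205) and under the filter on dim genes (-0.14, adjusted p = 0.0464), and COL4A1 with averaged probe sets (-0.20, adjusted p = 0.0476). NS siRNA was below mock for COL4A2 (-0.35, adjusted p = 4.09e-04) and did not pass for COL4A1 (0.14, adjusted p = 0.126). Taken within each array, COL4A2 minus COL4A1 was 1.03 ± 0.06 after Nrf2 siRNA, 0.54 ± 0.01 after NS siRNA and 1.03 ± 0.02 in mock (SD, n = 3 each), of which only the shift between groups can be read, since the values come from different probes. The shift was 0.49 for Nrf2 siRNA against NS siRNA, 0.00 against mock and -0.49 for NS siRNA against mock. The NS siRNA values lay below those of both other groups, each with an exact two-sided permutation p of 0.1, the smallest that 3 against 3 arrays can give, and Nrf2 siRNA against mock gave an exact p of 1.

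For COL4A6 minus COL4A5 the values were -0.14 ± 0.04 after Nrf2 siRNA, 0.13 ± 0.08 after NS siRNA and 0.19 ± 0.08 in mock (SD, n = 3 each). The shift was -0.27 against NS siRNA and -0.33 against mock, each with an exact permutation p of 0.1. With 3 pairs and 3 comparisons, 9 such tests were run and none could pass 0.05. COL4A3 and COL4A4, whose starts lie 419 bases apart on chromosome 2, did not pass in any comparison with their brightest probe sets. Of the 3 COL4A4 probe sets, 2 dimmer ones were called higher against NS siRNA and lower for NS siRNA against mock. So was 1 dimmer probe set of the 7 of COL4A3.

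**Figure D4:**
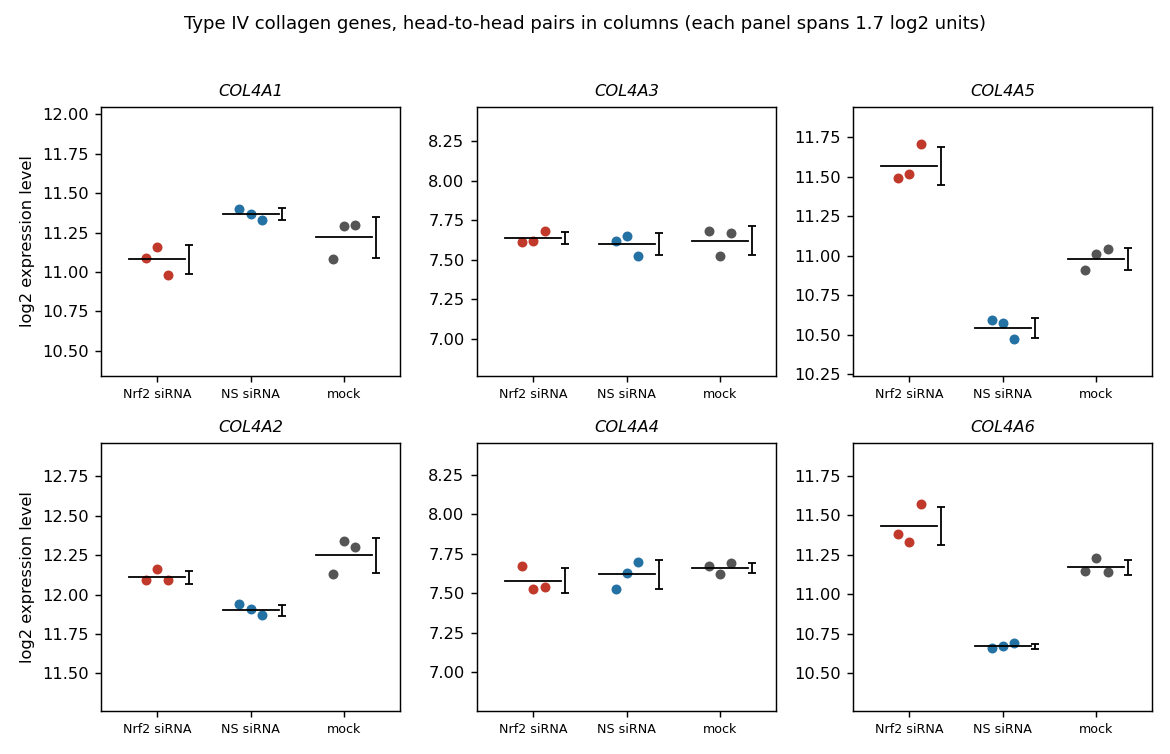
Log2 expression level (y axis, 1.7 log2 units in each panel) of the type IV genes, with the 2 genes of a head-to-head pair above each other, 1 point per array, a line at the group mean and a bar of 1 SD (n = 3). COL4A5 and COL4A6 are highest after Nrf2 siRNA and lowest after NS siRNA, COL4A2 is lowest after NS siRNA, and COL4A1 is highest there.

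COL21A1 encodes a FACIT collagen, a class that attaches to the surface of fibrils. It had levels of 8.27, 8.39 and 8.16 after Nrf2 siRNA, 6.50, 6.51 and 6.50 after NS siRNA, and 6.12, 6.00 and 5.97 in mock. Nrf2 siRNA lay above all control arrays, and NS siRNA lay above mock, unlike for the other strongly changed members. The gene was up 3.41-fold against NS siRNA (1.77 ± 0.06 SE, adjusted p = 2.11e-10) and 4.72-fold against mock (2.24 ± 0.06 SE, adjusted p = 7.56e-11), and NS siRNA was above mock by 0.47 (adjusted p = 6.60e-05). It was the only collagen gene called higher in all 3 comparisons. It has 1 probe set, and its control levels lay below the array medians, where no background test was made.

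The FACIT and related family held 10 genes. Against NS siRNA 2 were higher (COL12A1 and COL21A1), 1 was lower (COL9A1) and 7 did not pass, with a median of -0.05, and both counts, out of 10, lay below the shares of all genes (21.0% and 26.6%). Against mock 3 were higher (30.0%, against 16.4% of all genes) and the other 7 did not pass, with a median of 0.00. COL12A1, whose product binds type I fibrils, was up by 0.25 against NS siRNA (adjusted p = 0.00579) and by 0.30 against mock (adjusted p = 0.00226). Of its 5 probe sets only the brightest was called higher against NS siRNA, and the mean of its probe sets gave 0.03 (adjusted p = 0.547). COL16A1, a FACIT collagen with 1 probe set, was higher than in mock by 0.28 (adjusted p = 0.00526), with 0.11 against NS siRNA, which did not pass (adjusted p = 0.2), and 0.17 for NS siRNA against mock, which did not pass (adjusted p = 0.0682). The COL9A1 call against NS siRNA (-0.12, adjusted p = 0.0449) was lost under 13 of 17 other settings, among them the omission of any of 7 single arrays, and the values there ran from -0.13 to -0.08.

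COL18A1, a basement membrane collagen of the multiplexin class and the source of endostatin, stood at 10.20, 10.22 and 10.28 after Nrf2 siRNA, at 9.67, 9.67 and 9.66 after NS siRNA, and at 9.79, 10.00 and 9.75 in mock. The Nrf2 siRNA arrays lay above all control arrays. It was up 1.48-fold against NS siRNA (0.57 ± 0.06 SE, adjusted p = 4.99e-06) and by 0.39 against mock (adjusted p = 2.57e-04), and both probe sets were called higher. NS siRNA was below mock by a small amount (-0.18, adjusted p = 0.0358), a call lost without mock replicate 2 (-0.11, adjusted p = 0.135) or without any 1 of the NS siRNA arrays (-0.18 each, adjusted p = 0.0729 to 0.0844). COL15A1, the other multiplexin, passed for NS siRNA against mock (-0.24, adjusted p = 0.00907) and had 0.09 against NS siRNA, which did not pass. Without mock replicate 2 it was also lower than in mock after Nrf2 siRNA (-0.21, adjusted p = 0.022). COL15A1 has 1 probe set and is dim, with a mean of 5.50 over all arrays.

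The members that fell after Nrf2 siRNA did so by less than 2-fold. COL7A1, which builds the anchoring fibrils that fasten epithelium to the tissue below, stood at 9.56, 9.55 and 9.81 after Nrf2 siRNA, at 10.11, 10.02 and 10.01 after NS siRNA, and at 9.74, 10.03 and 9.88 in mock. The Nrf2 siRNA arrays lay below the NS siRNA arrays and overlapped the mock arrays. It was at 0.755 times its NS siRNA level (-0.41 ± 0.08 SE, adjusted p = 9.52e-04), with both probe sets called lower, and lower than in mock (-0.24, adjusted p = 0.0331). The call against mock was lost without mock replicate 2 (-0.17, adjusted p = 0.138) or 3 (-0.24, adjusted p = 0.078), or without Nrf2 siRNA replicate 1 (-0.20, adjusted p = 0.113) or 2 (-0.20, adjusted p = 0.125).

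Type VI collagen forms beaded filaments around cells. Of its 5 measured chains, 3 were lower than after NS siRNA (COL6A1, COL6A2 and COL6A6), with a median of -0.17, and the other 2 did not pass. Of all genes 26.6% were lower. COL6A1 fell against NS siRNA (-0.30 ± 0.05 SE, adjusted p = 1.28e-04), with all 8 of its probe sets below 0 and 5 called lower, but its difference against mock was 0.01 (adjusted p = 0.926), and NS siRNA stood above mock by 0.31 (adjusted p = 2.14e-04). COL6A2 had -0.17 against NS siRNA (adjusted p = 0.0461), 0.04 against mock, which did not pass, and 0.21 for NS siRNA against mock (adjusted p = 0.0263). COL6A6 had -0.25 against NS siRNA (adjusted p = 0.0473) and -0.28 against mock (adjusted p = 0.0361). The COL6A2 and COL6A6 calls were fragile: against NS siRNA COL6A2 lost its call under 8 of 17 other settings and COL6A6 under 10 of 16. Without NS siRNA replicate 3, for example, their values were -0.12 (adjusted p = 0.181) and -0.18 (adjusted p = 0.174).

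Of 3 measured membrane collagens COL23A1 was lower than after NS siRNA (-0.21, adjusted p = 0.0277). That call was lost without NS siRNA replicate 3 (-0.16, adjusted p = 0.114) or without Nrf2 siRNA replicate 2 (-0.12, adjusted p = 0.111). COL17A1, also of this class, had no probe set of its own here. The 3 hexagonal network genes (COL8A1, COL8A2 and COL10A1) did not pass in any comparison. In all, 21 collagen genes were never called with their brightest probe sets: COL1A2, COL2A1, COL4A3, COL4A4, COL5A3, COL6A3, COL6A5, COL8A1, COL8A2, COL9A2, COL9A3, COL10A1, COL13A1, COL14A1, COL19A1, COL20A1, COL22A1, COL24A1, COL25A1, COL26A1 and COL28A1. Their differences ran from -0.15 to 0.04 against NS siRNA, from -0.14 to 0.06 against mock, and from -0.13 to 0.11 for NS siRNA against mock. Of the 43 members, 28 were brighter than the median probe set of the array and 15 were not; among the 28, 11 were higher (39.3%, against 28.7% of the 13139 such genes) and 6 lower (21.4%, against 31.2%) than after NS siRNA.

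The genes that fold and modify procollagen in the endoplasmic reticulum were counted as a list of 18 measured genes. Against NS siRNA 12 were higher and 2 lower (66.7% and 11.1%, against 21.0% and 26.6% of all genes), with a median of 0.28. Against mock 5 were higher and 7 lower (27.8% and 38.9%, against 16.4% and 16.7%), with a median of -0.15. After NS siRNA 15 of the 18 were lower than in mock (83.3%, against 15.2%) and the other 3 did not pass, with a median of -0.39. SERPINH1, the collagen chaperone HSP47, stood at 12.45, 12.40 and 12.41 after Nrf2 siRNA, at 10.83, 10.86 and 10.81 after NS siRNA, and at 11.30, 11.45 and 11.30 in mock. Its groups did not overlap: it was up 3.01-fold against NS siRNA (1.59 ± 0.05 SE, adjusted p = 9.82e-11) and by 1.07 against mock (adjusted p = 5.23e-09), with -0.52 for NS siRNA against mock (adjusted p = 4.80e-06). CRTAP and P3H2, which serve prolyl 3-hydroxylation, were up by 0.66 (adjusted p = 1.21e-07) and 0.59 (adjusted p = 3.79e-07) against NS siRNA and by 0.20 and 0.34 against mock (adjusted p = 0.00463 and 1.04e-04); 1 of the 2 P3H2 probe sets had the same sign. P4HA3, a catalytic subunit of prolyl 4-hydroxylase, was up by 0.75 against NS siRNA (adjusted p = 5.48e-07) and lower than in mock (-0.34, adjusted p = 7.79e-04), and NS siRNA was lower than mock by more (-1.09, adjusted p = 5.37e-08).

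**Figure D5:**
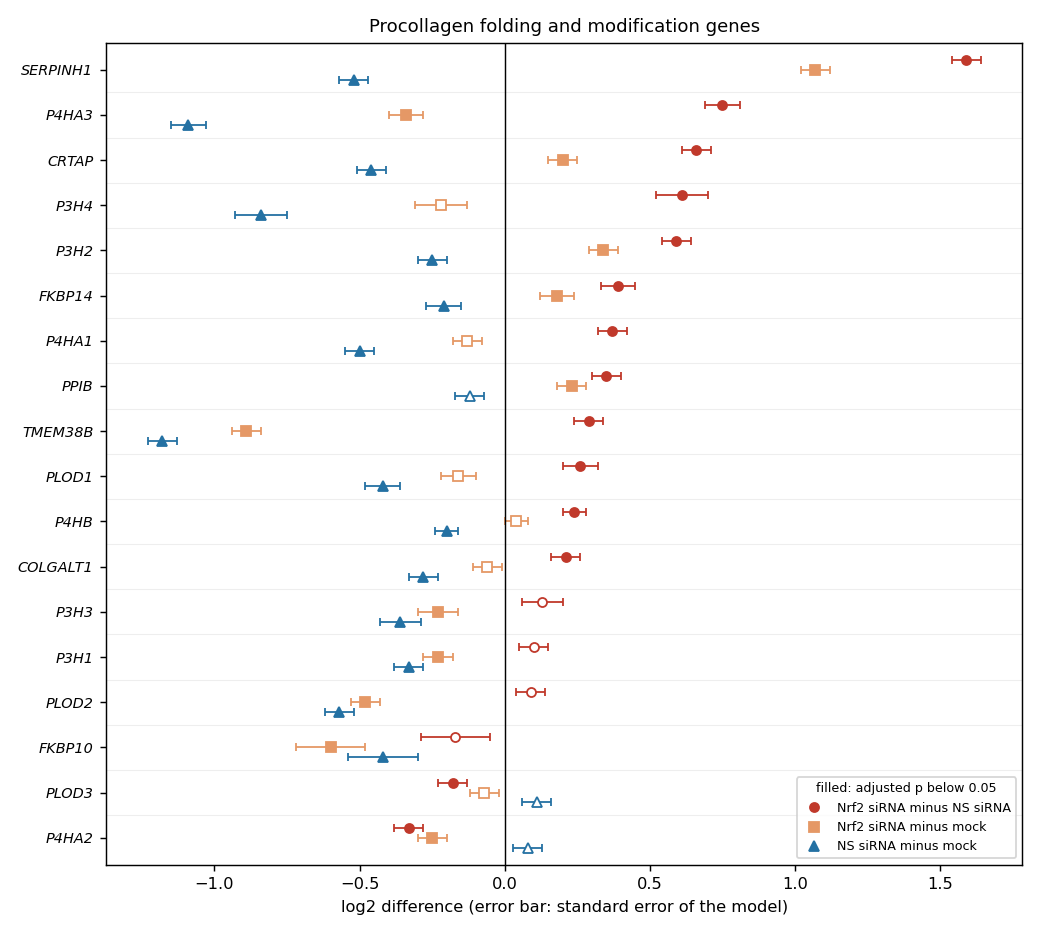
Log2 difference (x axis) of the 18 measured procollagen folding and modification genes, with red circles for Nrf2 siRNA minus NS siRNA, orange squares for Nrf2 siRNA minus mock and blue triangles for NS siRNA minus mock. Bars are the standard errors of the model and filled symbols have an adjusted p below 0.05; 15 blue triangles are filled and lie below 0, and SERPINH1 has the largest red and orange values, 1.59 and 1.07.

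Later steps of the collagen pathway were counted in the same way. Of 8 measured genes for export from the endoplasmic reticulum, 3 were higher and 3 lower against NS siRNA (37.5% each, against 21.0% and 26.6% of all genes, median 0.03), with SEC24D (0.78, adjusted p = 9.80e-06), SEC31A (0.38, adjusted p = 9.99e-06) and the procollagen export receptor MIA3 (0.36, adjusted p = 7.24e-05) up and the GTPase SAR1B down (-0.33, adjusted p = 0.0021). Of 13 genes for propeptide cleavage and cross-linking, 2 were higher and 3 lower (15.4% and 23.1%, both below the shares of all genes, median -0.09). PCOLCE2, an enhancer of the procollagen C-proteinase, was down (-1.08, adjusted p = 3.87e-08), the C-proteinase BMP1 was up by 0.52 (adjusted p = 1.85e-05), and of the cross-linking enzymes LOXL1 was up by 0.72 (adjusted p = 2.64e-06) and LOXL2 down (-0.23, adjusted p = 0.00388). The signs of these 4 calls were the same against mock, at -1.24, 0.40, 0.49 and -0.55, each past the threshold.

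Of 9 measured collagen receptors and uptake genes, 4 were higher and 1 lower against NS siRNA, with a median of 0.05. That is 44.4% and 11.1%, against 21.0% and 26.6% of all genes. The integrin chains ITGA1 and ITGA11 were up by 0.56 (adjusted p = 8.22e-05) and 0.90 (adjusted p = 1.61e-04), the uptake receptor MRC2 by 0.29 (adjusted p = 1.23e-04), and the integrin chain ITGA2 was down (-0.21, adjusted p = 0.00456). Against mock ITGA1 was higher by 0.23 (adjusted p = 0.0452), while ITGA11 had a difference of -0.02 (adjusted p = 0.945), with NS siRNA below mock (-0.92, adjusted p = 2.75e-04). Against mock MRC2 was lower (-0.40, adjusted p = 1.38e-05) and ITGA2 higher (0.45, adjusted p = 2.06e-05), the opposite signs. Of 7 proteases that cut collagen, 3 were higher and 2 lower against NS siRNA, with a median of -0.02. The 3 are 42.9%, against 21.0% of all genes, and the 2 are 28.6%, near the 26.6% of all genes. The collagenase MMP1 was up by 1.30 (adjusted p = 6.13e-06), and by 1.46 against mock (adjusted p = 4.11e-06). MMP1 is dim and has 1 probe set, with levels of 6.59, 6.57 and 5.91 after Nrf2 siRNA. Its levels were 5.01, 5.08 and 5.09 after NS siRNA and 4.80, 4.87 and 5.01 in mock, where no background test was made. MMP2 was up by 1.42 (adjusted p = 5.96e-09) with 1 of its 3 probe sets, and by 0.13 against mock, which did not pass. MMP9 was down (-0.27, adjusted p = 7.26e-04) and CTSK up by 0.23 (adjusted p = 0.00537); against mock neither passed (-0.08 and 0.08).

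Of 18 regulators of collagen transcription and message, 9 were higher and 5 lower against NS siRNA (of all genes 21.0% and 26.6%, the 5 lower being 27.8%, median 0.09), and 4 were higher and 8 lower against mock (22.2% and 44.4%, against 16.4% and 16.7%, median -0.05). TGFBR2, a receptor of transforming growth factor beta, was up by 1.93 against NS siRNA (adjusted p = 1.50e-11) and by 1.08 against mock (adjusted p = 3.10e-09). The ligand TGFB1 and the receptor TGFBR1 were up by 1.19 (adjusted p = 8.54e-10) and 1.08 (adjusted p = 3.19e-08) against NS siRNA but lower than in mock (-0.30, adjusted p = 3.55e-04, and -0.35, adjusted p = 0.00108). NS siRNA was lower than mock for both (-1.49, adjusted p = 6.54e-10, and -1.43, adjusted p = 9.42e-09). The ligand TGFB2 was down against NS siRNA (-0.77, adjusted p = 3.58e-08) and against mock (-0.55, adjusted p = 1.44e-06).

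The cells carried the keratins of an epithelial line: KRT8 and KRT18 lay between 14.14 and 15.00 on every array. COL1A1 and COL3A1 are markers of fibroblasts, and 14 other fibroblast and mesenchymal markers were measured beside them. Of these, 8 were brighter than the median probe set, and no level on this log2 scale is a true 0. Against NS siRNA 7 were higher and the other 7 did not pass, with a median difference of 0.09 over the 14. The share of 7 in 14 lay above the 21.0% of all genes that were higher. Against mock 5 were higher (35.7%, against 16.4% of all genes) and the other 9 did not pass. After NS siRNA 5 were lower than in mock (35.7%, against 15.2% of all genes), where the other 9 did not pass. LUM, a proteoglycan of collagen fibrils, had the largest difference, 3.01 (adjusted p = 1.10e-10), while DCN, PDGFRA and POSTN, at -0.06, 0.01 and -0.02, did not pass. The log2 of the summed level of the 14 markers lay at 14.45 to 14.56 after Nrf2 siRNA, at 13.66 to 13.71 after NS siRNA and at 13.98 to 14.07 in mock, the order of COL3A1 and COL11A1. That sum is carried by S100A4, which made up 66.6% to 68.3% of it after Nrf2 siRNA, 61.8% to 63.5% after NS siRNA and 59.9% to 63.7% in mock. Of 8 epithelial markers 3 were higher against NS siRNA (KRT19, EPCAM and CDH1) and 1 lower (KRT7). That is 37.5% and 12.5%, beside 21.0% and 26.6% of all genes. The log2 sum of the 8 was 16.14 to 16.23 after Nrf2 siRNA, 16.10 to 16.11 after NS siRNA and 16.00 to 16.03 in mock. Of 4 immune and 4 endothelial markers measured, 1 each was higher against NS siRNA (CD14 by 0.96 and CDH5 by 0.19). That is 25.0% of each list, near the 21.0% of all genes. CDH5 is dim, with a mean of 5.49 over all arrays. Log2 sums of the immune and endothelial lists were 9.91 to 10.03 and 10.15 to 10.35 after Nrf2 siRNA. They were 9.59 to 9.68 and 10.34 to 10.42 after NS siRNA, and 9.50 to 9.62 and 10.27 to 10.36 in mock. The part of these markers in the collagen differences was not tested. The arrays measured whole cultures, in which more cells that express a gene and more RNA per cell cannot be told apart.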

How the data were processed

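Total RNA of 9 A549 cultures was labelled with biotin and read on an Affymetrix array of 54675 probe sets. The authors deposited log2 values from RMA, according to the submitters' processing notes; the RMA version and settings are not stated in the labels. These log2 values (3.6 to 15.06) were used without further scaling, and 0 columns were left unused. The annotation gave exactly 1 gene to 41091 probe sets, several to 1801 and none to 11721, and 62 control probe sets were left out. Symbols were matched by Entrez identifier to RefSeq (GRCh38.p14) for 41037 of the 41091, and 54 kept the annotation's symbol.

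Group means were fitted to all 9 arrays and 19775 genes by lmFit and eBayes of the limma package (version 3.58.1, R 4.3.3, two-sided tests, 6 residual and 6.12 prior degrees of freedom), adjusted by Benjamini-Hochberg over all genes and called at 0.05. SE comes from this model, SD from 3 arrays, and folds are antilogs of the log2 differences. P-values measure the spread between cultures that the labels call biological replicates.

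The collagen genes and all lists of related genes and markers were chosen with earlier results of these data known. All called collagen genes are named, with array values for COL1A1, COL3A1 and the 8 called members with the largest differences against NS siRNA or between NS siRNA and mock, plus COL4A1 and COL4A2. Lists name up to 4 members with the smallest adjusted p. COL17A1, COLGALT2, DDR1 and CD68 had no probe set of their own here. No scan date was used, so no scan batch was examined.

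Alternatives were equal array medians, quantile normalization, a filter on dim genes, averaged probe sets, separate probe sets, trended and robust eBayes, a fit of the compared groups alone, a replicate block, the omission of each array, and a threshold of 0.01. In a simulation of Nrf2 siRNA against NS siRNA, 200 of 19775 genes were changed. The fit recovered 100% at 2-fold, 89.6% at 1.41-fold and 40.9% at 1.19-fold, with 11 calls among unchanged genes. In the data 47.6% of genes were called, and with more calls the same adjusted threshold admits larger p-values. The recovery shares of the simulation therefore do not carry over to the data. Matplotlib 3.10.9 and Python 3.11.15 drew the figures.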

Additional observations from a re-analysis of the deposited data

How the results depend on the processing

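The count of collagen genes higher than after NS siRNA was 12 in every setting but 2. It was 11 under the filter on dim genes, which leaves out COL21A1, and 11 with averaged probe sets. With averaged probe sets both COL12A1 (0.03, adjusted p = 0.547) and COL27A1 (0.07, adjusted p = 0.259) lost their call. That count of 11 therefore includes a gene that is not among the 12. The count lower, 8, depended more on the setting. It was 5 with equal array medians (a split of 12 higher and 5 lower, against 12 and 8), 5 with each probe set on its own, 5 with only the groups compared and 3 at an adjusted p below 0.01. Against mock the 2 lower calls were 0 with only the groups compared and 0 at an adjusted p below 0.01. Leaving out 1 array at a time, the counts against NS siRNA were 12 to 12 higher and 3 to 8 lower, those against mock 11 to 12 higher and 0 to 4 lower, and those of NS siRNA against mock 2 to 4 higher and 8 to 9 lower. Of the genes lower than after NS siRNA, 3 were left without replicate 3 of NS siRNA, 3 without replicate 2 of Nrf2 siRNA and 5 without replicate 3 of mock. With the replicate number as a block the counts were 12 and 9 against NS siRNA, 11 and 2 against mock, and 4 and 9 for NS siRNA against mock; the numbers did not pair the samples, as same-numbered arrays correlated at r = -0.21 to 0.23 in their deviations from the group means.

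Of 757 repeats of called values of single collagen genes, 695 kept their call and 62 lost it. Among the 22 collagen genes called in at least 1 comparison, signs turned only where neither value passed. The 21 genes never called were not part of this check. For Nrf2 siRNA against mock, COL6A1 was -0.03 with quantile normalization, -0.08 with averaged probe sets and -0.02 to 0.03 with 1 array left out, COL6A2 was -0.04 with averaged probe sets and -0.01 to 0.08 with 1 array left out, and COL23A1 was -0.11 to 0.03 with 1 array left out. For NS siRNA against mock, COL6A6 was -0.16 to 0.07 with 1 array left out, and COL27A1 was 0.01 with quantile normalization, 0.02 with averaged probe sets and -0.05 to 0.01 with 1 array left out. The cause of these changes was not tested. Dim genes have no background test. Small differences such as 1.19-fold were often missed in the simulation, where far fewer genes changed than were called in the data.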

Other observations

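Some dimmer probe sets of collagen genes passed where the brightest did not; adjusted p here is over the 41091 probe sets with exactly 1 gene. A dimmer COL4A4 probe set averaged 7.52 ± 0.08 after Nrf2 siRNA, 6.99 ± 0.14 after NS siRNA and 7.60 ± 0.08 in mock (SD, n = 3 each), a difference of 0.53 against NS siRNA (adjusted p = 6.84e-05) and of -0.61 for NS siRNA against mock (adjusted p = 4.54e-05). The remaining COL4A4 probe set had 0.23 against NS siRNA (adjusted p = 0.0071) and -0.20 for NS siRNA against mock (adjusted p = 0.0266). A dim probe set of COL4A3, its head-to-head neighbour, averaged 5.95 ± 0.11 after Nrf2 siRNA, 5.57 ± 0.21 after NS siRNA and 5.87 ± 0.06 in mock (SD, n = 3 each), with 0.39 against NS siRNA (adjusted p = 0.0042), while its 6 other probe sets did not pass. Other such probe sets went in either direction. Against NS siRNA, 1 of COL9A2 (-0.21, adjusted p = 0.0117) and 1 of COL1A2 (-0.15, adjusted p = 0.0493) were lower. In the same comparison 1 of COL13A1 (0.30, adjusted p = 0.0265) and 1 of COL26A1 (0.18, adjusted p = 0.0201) were higher. Against mock, 1 of COL2A1 was lower (-0.24, adjusted p = 0.0351). All these probe sets were picked after their values were seen, and the list is not complete.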
